A study of Mus musculus with 8 samples.

Results

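The genes described here are 8 surface proteins that restrain T cells, Pdcd1 (PD-1), Ctla4 (CTLA-4), Lag3 (LAG-3), Havcr2 (TIM-3), Tigit (TIGIT), Cd160 (CD160), Btla (BTLA), and Entpd1 (CD39), and 1 nuclear factor, Tox. They were chosen by name, as 9 of the 20170 genes of the deposited count matrix, and all 9 were found there. Their mRNA was measured in T cells from mouse spleen, purified by magnetic separation and sequenced as single cells with the 10x Genomics 3′ HT chemistry, in which captured mRNA molecules are counted by unique molecular identifiers (UMIs). There were 8 libraries, 2 for each pairing of genotype (wild type, WT, or SDHA-KO) with state (unstimulated or stimulated). SDHA-KO mice were Sdha fl/fl CD4-Cre, so that Cre recombinase was driven by the CD4 promoter and acts in T cells that have expressed CD4. The study names C57BL/6 mice as the source of the WT T cells. Whether these were littermates of the SDHA-KO mice or carried floxed Sdha is not stated for these libraries. Sdha encodes the catalytic subunit of succinate dehydrogenase, complex II of the mitochondrial respiratory chain. The mice of the study were 8 to 12 weeks old. Stimulated cells had been cultured for 48 hours with soluble antibodies against CD3ε (5 μg/mL) and CD28 (2.5 μg/mL), and unstimulated cells had been cultured without them. Dead cells were removed from both before loading. Whether the 2 replicate libraries of a group came from different mice is not stated in the records, so the p values below measure the spread between these libraries, which may be technical.

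The receptors of this group are brakes on T cell activation. PD-1, BTLA, and TIGIT carry tyrosine-based inhibitory motifs in their tails that recruit phosphatases, CTLA-4 competes with CD28 for its ligands CD80 and CD86, LAG-3 binds MHC class II, and CD39 breaks down extracellular ATP on the way to adenosine. Most of them appear on recently activated T cells as well as on the exhausted T cells of chronic infection and tumors, where TOX, a DNA-binding protein of the HMG-box family, maintains the exhausted state. TOX is also made during thymic development, and CTLA-4 is made constitutively by regulatory T cells (Tregs). A transcript of 1 of these genes is therefore a mark of activation or of cell type as much as of exhaustion.

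All 9 are protein-coding genes on mm10, the build named in the submitters' processing notes, with positions from GENCODE vM21. Ctla4 (chr1:60887000-60915832, plus strand) and Pdcd1 (chr1:94038305-94052553, minus strand) share a chromosome, as do Tigit (chr16:43648867-43664146, minus strand) and Btla (chr16:45224315-45257670, plus strand). Cd160 lies at chr3:96798763-96829351 (minus strand), Tox at chr4:6686353-6991557 (minus strand), and Lag3 at chr6:124904361-124911705 (minus strand). Havcr2 lies at chr11:46454935-46481255 (plus strand) and Entpd1 at chr19:40612366-40741602 (plus strand). The promoters of Pdcd1, Ctla4, Havcr2, and Cd160 are shown, since these receptors were called between the genotypes in stimulated CD8 cells both with and without Trdc-positive cells. Lag3 and Tox had no entry. Each is the 250 bases before and 50 bases from a RefSeq start site on GRCm38.p6, read 5′ to 3′ on the strand of the gene. Capitals mark GGAAA, the core to which NFAT proteins bind, and TGANTCA, the AP-1 site, on either strand. NFAT and AP-1 are the factors that calcium and kinase signals from the T cell receptor switch on. The Pdcd1 promoter (chr1:94052504-94052803, minus strand) held 2 matches of GGAAA, that of Ctla4 (chr1:60908775-60909074, plus strand) held 1, and that of Havcr2 (chr11:46454681-46454980, plus strand) held 1 match of TGANTCA. Cd160 has 2 start sites, and its upstream promoter (chr3:96829302-96829601, minus strand) held no match while the other (chr3:96814472-96814771, minus strand) held 1 of GGAAA.
Pdcd1: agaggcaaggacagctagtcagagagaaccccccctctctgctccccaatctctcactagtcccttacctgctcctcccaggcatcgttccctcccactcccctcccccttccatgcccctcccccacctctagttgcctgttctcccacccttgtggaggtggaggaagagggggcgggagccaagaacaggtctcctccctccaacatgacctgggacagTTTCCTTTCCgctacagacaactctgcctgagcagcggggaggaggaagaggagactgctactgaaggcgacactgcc
Ctla4: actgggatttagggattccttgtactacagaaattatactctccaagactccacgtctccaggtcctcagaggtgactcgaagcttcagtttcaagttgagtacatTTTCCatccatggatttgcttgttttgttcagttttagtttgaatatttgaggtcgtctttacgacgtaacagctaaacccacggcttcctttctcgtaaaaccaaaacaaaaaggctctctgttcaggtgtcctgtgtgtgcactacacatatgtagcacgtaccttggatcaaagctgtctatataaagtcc
Havcr2: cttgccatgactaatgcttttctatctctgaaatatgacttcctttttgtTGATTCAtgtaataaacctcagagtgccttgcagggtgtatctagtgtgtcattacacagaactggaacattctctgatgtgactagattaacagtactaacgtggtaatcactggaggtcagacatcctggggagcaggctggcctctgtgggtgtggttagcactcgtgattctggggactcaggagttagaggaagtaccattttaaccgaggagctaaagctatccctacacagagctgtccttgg
Cd160, upstream start site: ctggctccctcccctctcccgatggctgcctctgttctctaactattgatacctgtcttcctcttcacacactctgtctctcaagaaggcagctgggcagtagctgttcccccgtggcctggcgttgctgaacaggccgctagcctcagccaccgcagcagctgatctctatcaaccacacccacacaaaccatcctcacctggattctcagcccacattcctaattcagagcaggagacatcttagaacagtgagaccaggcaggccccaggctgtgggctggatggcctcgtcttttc
Cd160, downstream start site: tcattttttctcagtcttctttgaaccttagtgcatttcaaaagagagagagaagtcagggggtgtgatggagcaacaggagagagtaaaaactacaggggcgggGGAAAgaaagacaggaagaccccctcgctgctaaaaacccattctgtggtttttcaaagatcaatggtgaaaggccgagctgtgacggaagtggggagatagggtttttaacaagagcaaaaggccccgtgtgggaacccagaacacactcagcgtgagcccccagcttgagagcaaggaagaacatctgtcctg
Of the 32851 mouse promoters of this length in the same collection, 61.3% held GGAAA and 7.81% held TGANTCA, so a match says little about any 1 promoter. The Tigit promoter (chr16:43664135-43664434, minus strand) held 2 matches of GGAAA and that of Btla (chr16:45224087-45224386, plus strand) held none of either motif.

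UMIs were summed per library over the cells that the authors annotated as CD4 or as CD8, and values are given as CPM, the UMIs of a gene relative to all UMIs of its sum, after TMM scaling with edgeR. Values of single clusters and of Tregs are CPM without TMM scaling. A gene is called different when its adjusted p (edgeR's quasi-likelihood test, Benjamini-Hochberg over all genes tested) is below 0.05, and the same test gives every adjusted p below unless another is named. In such sums, fewer cells making a transcript and less transcript per cell cannot be told apart. The 8 libraries held 12846 cells, from 1395 to 1801 each, with 10947009 to 51398728 UMIs per library, and 23 of 12823 barcodes occurred in more than 1 library. The stimulated WT libraries stood apart from the others in their mitochondrial share. Their median cell held 17.9% and 16.2% of its UMIs on the mitochondrial genome, against 2.29% and 2.20% in stimulated SDHA-KO and 3.48% to 4.07% in unstimulated cells, and only 31.8% and 35.5% of their cells lay under 10%. Results in stimulated cells were therefore recomputed over cells under 10%, in which depth per cell also differs from that of the whole library. The targeted gene was lower in SDHA-KO in every comparison. In stimulated CD4 cells, Sdha stood at 74.0 and 73.1 CPM in WT, against 26.5 and 26.4 in SDHA-KO. In stimulated CD8 cells its level was 76.2 and 74.9 CPM in WT, against 53.3 and 50.5 in SDHA-KO. A 3′ tag outside the deleted part of Sdha can still be counted, so the remaining UMIs need not come from intact transcripts. How many of them did was not tested.

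The CD8 class of SDHA-KO was rich in cells with Trdc, which encodes the constant region of the T cell receptor δ chain. A Trdc UMI was found in 302 of 511 (59.1%) and 222 of 396 (56.1%) of the stimulated SDHA-KO CD8 cells, and in 3.67% and 4.92% of those of stimulated WT. In the unstimulated libraries the shares were 19.7% and 15.2% in SDHA-KO and 3.90% and 3.41% in WT. The 7 γδ T cell markers summed to 289 and 289 CPM in the stimulated SDHA-KO CD8 sums, with 7 and 6 of them detected, and to 22.8 and 26.4 CPM in those of stimulated WT, with 7 and 7 detected. Of 6 T cell markers, 6 were detected in every sum. The comparison of the genotypes in CD8 cells is therefore given for all cells of the class and for those without a Trdc UMI, and the other results in CD8 cells for the whole class unless stated. Absence of a Trdc UMI does not prove that a cell lacks the transcript. Among those without one, Sdha stood at 31.8 and 29.6 CPM in stimulated SDHA-KO and at 76.5 and 74.7 CPM in stimulated WT (log2 fold change −1.30).

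Stimulation moved nearly all 9 genes, and most of the receptors rose. In WT CD8 cells, 8 of the 9 members were called between stimulated and unstimulated cells, where 65.7% of the 13095 genes tested were called. Ctla4 rose from 18.0 and 8.70 CPM to 320.0 and 339 CPM (log2 fold change of 4.68 with an SE of 0.22, adjusted p = 7.37e-09). Lag3 was nearly silent before stimulation, with 0 and 0.22 CPM, and stood at 141 and 173 CPM after it. Only 1 Lag3 UMI was counted in the unstimulated WT CD8 cells, which puts the ratio of the group totals at 1759 with a 95% counting interval from 316 to 69496. Intervals of this kind cover counting error only. Pdcd1 rose from 0.29 and 0.67 CPM to 14.9 and 15.1 CPM (log2 fold change 4.88). Havcr2 went from 0 UMIs to 137 UMIs over the 2 libraries, at least 10.1-fold higher with 3 UMIs over the group taken as the most that 0 allows. Without Trdc-positive cells it went from 0 to 84 UMIs, at least 6.32-fold higher on the same terms. Tigit rose by 3.23 on the log2 scale. Cd160 changed least among the receptors that rose, by 0.54 (adjusted p = 0.0307).

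The members that fell with stimulation were Btla and Tox. Btla went from 47.1 and 43.7 CPM to 35.2 and 27.8 CPM in WT CD8 cells (log2 fold change −0.53, adjusted p = 0.00508). Tox went from 221 and 215 CPM to 92.6 and 66.3 CPM (log2 fold change −1.46, adjusted p = 7.15e-05). Entpd1 stood at 0.29 and 0.89 CPM before and at 2.03 and 2.72 CPM after stimulation and was just short of a call (adjusted p = 0.0508). It was called under 12 of 18 alternatives and without Trdc-positive cells (1.78, adjusted p = 0.0257). Without composition normalization the median of all genes in this comparison moved from 0.09 to 0.57, and Btla was no longer called (−0.041). The Btla call was also lost in thinned cells (−0.22, adjusted p = 0.237) and without the first unstimulated WT library (−0.45, adjusted p = 0.0646), and its direction turned with limma on mean log values.

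In SDHA-KO CD8 cells, 8 members were called with stimulation (68.2% of all genes tested), and the directions were those seen in WT. Pdcd1 rose by 5.81 on the log2 scale, Ctla4 by 2.71, Lag3 by 7.07 from 4 UMIs, and Cd160 by 0.91, while Btla fell by 0.81 and Tox fell by 2.45. Havcr2 rose from 2 UMIs to 816 UMIs, a ratio of group totals of 89.3 with a counting interval from 24.6 to 739. Tigit rose from 3 UMIs to 262 UMIs, a ratio of 19.1 with a counting interval from 6.47 to 93.3. Entpd1 was again not called (log2 fold change 1.00, adjusted p = 0.159). Without Trdc-positive cells the fall of Btla was not called (−0.19, adjusted p = 0.232), and Tox fell by 2.06.

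In CD4 cells several members were well represented before stimulation. In unstimulated WT CD4 cells Ctla4 stood at 102 and 102 CPM, Btla at 86.6 and 93.9 CPM, and Tox at 360.0 and 344 CPM. With stimulation, 7 members were called in WT (66.3% of the 14264 genes tested) and 8 in SDHA-KO (69.8%). In WT, Lag3 rose to 90.9 and 95.8 CPM (log2 fold change of 4.15 with an SE of 0.29, adjusted p = 1.98e-07). Ctla4 rose by 1.21, Tigit by 1.02, Pdcd1 by 0.93, and Btla by 0.56 on the log2 scale. Entpd1 fell by 1.67 and Tox fell by 1.04. Without the 1 cell that held most Lag3 UMIs of the second unstimulated WT library, Lag3 rose by 5.70 and Entpd1 fell by 1.21. Without it the Havcr2 value of −0.59 (adjusted p = 0.615) also turned, since 0 UMIs were left before and 58 were counted after stimulation, at least 4.99-fold higher. With it Havcr2 and Cd160 (0.47, adjusted p = 0.193) were not called. In SDHA-KO CD4 cells Lag3 rose by 6.90, Cd160 by 2.10, Pdcd1 by 1.75, Ctla4 by 0.86, Tigit by 0.81, and Btla by 0.56, and Tox fell by 1.47 and Entpd1 by 1.37. The value of Btla with stimulation was thus above 0 in CD4 cells and below 0 in CD8 cells of both genotypes, with the limits on the CD8 calls given above. That difference between the classes was not tested. The plot of CPM by library shows these shifts gene by gene.

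**Figure D1:**
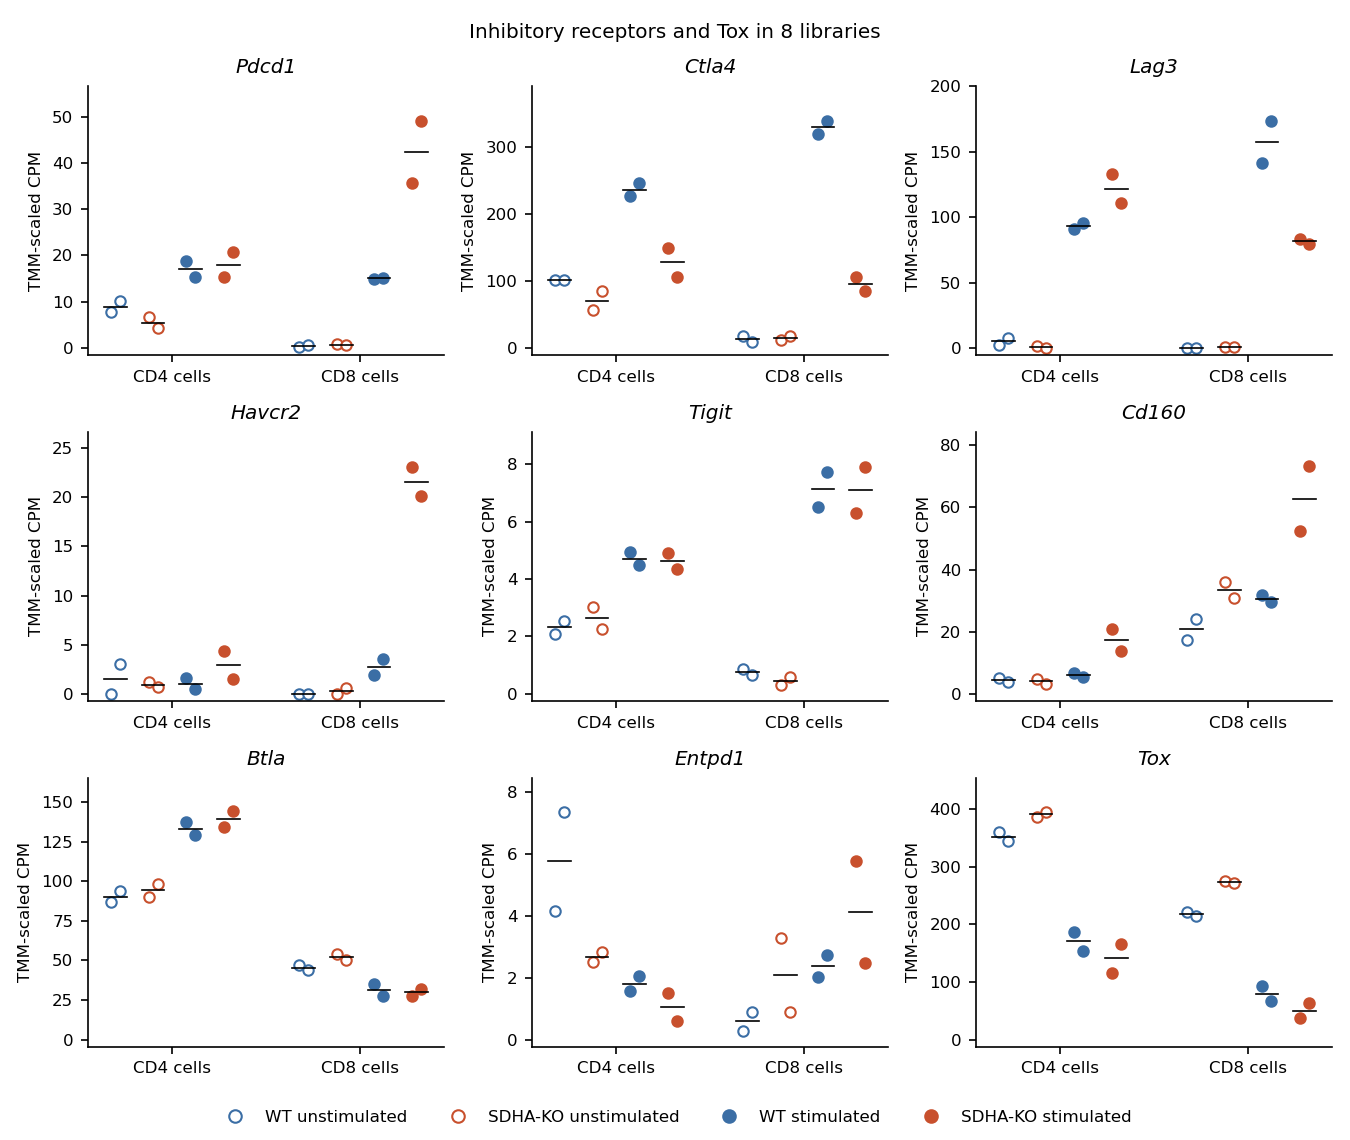
TMM-scaled CPM (vertical axes, linear, each gene with its own scale) of the 9 genes in CD4 cells (left) and CD8 cells (right) of each library. Points are single libraries, open for unstimulated and filled for stimulated, blue for WT and red for SDHA-KO, and black lines are means of the 2 libraries of a group. Lag3 is near 0 before stimulation in both classes, Tox is lower after stimulation in both, and the stimulated SDHA-KO points lie above those of WT for Pdcd1, Havcr2, and Cd160 in CD8 cells and below them for Ctla4.

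The comparison of SDHA-KO with WT in stimulated CD8 cells was first made over the whole class. Trdc-positive cells were 59.1% and 56.1% of it in SDHA-KO and 3.67% and 4.92% in WT. Over the whole class, changes within cells and this difference in cell composition cannot be told apart. Pdcd1, Havcr2, and Cd160 were higher in SDHA-KO, Ctla4, Lag3, and Tox were lower, and Tigit, Btla, and Entpd1 were not called. Of all 13095 genes tested, 50.4% were called, 26.8% higher and 23.5% lower, so the count of 6 called members is not in itself a result about them. The median log2 fold change was −0.01 for the 9 members, all of which passed the filter on low counts, and −0.01 for all genes tested.

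Pdcd1 stood at 14.9 and 15.1 CPM in the stimulated WT libraries and at 35.7 and 49.0 CPM in those of SDHA-KO. The SDHA-KO libraries lay above both WT libraries, 2.80-fold on average (log2 fold change of 1.49 with an SE of 0.14, adjusted p = 8.96e-06). Havcr2 stood at 1.90 and 3.50 CPM in WT, against 23.1 and 20.1 in SDHA-KO, 7.95-fold higher (log2 fold change of 2.99 with an SE of 0.25, adjusted p = 8.03e-06). This was the largest difference among the 9 genes, from a low level in WT. CD160, a glycosylphosphatidylinositol-anchored receptor that shares the ligand HVEM with BTLA, was 2.04-fold higher in its mRNA. Cd160 stood at 31.7 and 29.6 CPM in WT, against 52.5 and 73.2 in SDHA-KO (log2 fold change of 1.03 with an SE of 0.15, adjusted p = 0.000163).

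The opposite direction was found in Ctla4, Lag3, and Tox. Ctla4 stood at 320.0 and 339 CPM in WT, against 106 and 84.8 in SDHA-KO, 3.45-fold lower (log2 fold change of −1.78 with an SE of 0.15, adjusted p = 4.85e-06). Lag3 stood at 141 and 173 CPM in WT, against 83.5 and 79.5 in SDHA-KO, 1.93-fold lower (log2 fold change of −0.95 with an SE of 0.10, adjusted p = 1.74e-05). Tox stood at 92.6 and 66.3 CPM in WT, against 37.2 and 63.3 in SDHA-KO, with the higher SDHA-KO library close to the lower WT library (log2 fold change of −0.67 with an SE of 0.20, adjusted p = 0.0164). The Tox call was lost among cells under 10% mitochondrial UMIs (−0.22, adjusted p = 0.469), with DESeq2, and without the first library of either stimulated group.

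Tigit stood at 6.52 and 7.75 CPM in WT, against 6.30 and 7.92 in SDHA-KO, a log2 difference of −0.01 with a 95% interval from −0.41 to 0.39. Btla stood at 35.2 and 27.8 CPM in WT, against 27.7 and 32.1 in SDHA-KO, with an interval of the log2 difference from −0.34 to 0.18. Among cells under 10% mitochondrial UMIs, Btla was instead higher in SDHA-KO (log2 fold change 0.49, adjusted p = 0.00951). Entpd1 stood at 2.03 and 2.72 CPM in WT, against 5.78 and 2.48 in SDHA-KO, with overlapping libraries (log2 fold change 0.81, adjusted p = 0.134). Among cells under 10%, Pdcd1 (1.71), Havcr2 (2.95), Cd160 (1.03), Ctla4 (−1.61), and Lag3 (−0.41, adjusted p = 0.0059) kept their calls, the last with a smaller difference than over all CD8 cells.

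Leaving out cells with a Trdc UMI changed the picture for some members and not for others. Without them, 6 of 9 members were called in stimulated cells, where 49.3% of the 11938 genes tested were called, 24.9% higher and 24.4% lower. Pdcd1 kept its difference, with 14.8 and 14.8 CPM in WT, against 27.9 and 56.0 in SDHA-KO (log2 fold change of 1.49 with an SE of 0.24, adjusted p = 0.000218). Ctla4 stood at 324 and 342 CPM in WT, against 133 and 70.7 in SDHA-KO (log2 fold change of −1.69 with an SE of 0.21, adjusted p = 2e-05). Cd160 stood at 31.8 and 30.3 CPM in WT, against 58.5 and 77.9 in SDHA-KO (log2 fold change of 1.13 with an SE of 0.13, adjusted p = 1.22e-05). These 3 values differ little from those over all CD8 cells.

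Havcr2 remained higher in SDHA-KO without the Trdc-positive cells but at a lower level. It stood at 1.19 and 2.32 CPM in WT, against 8.43 and 7.82 in SDHA-KO, 4.61-fold higher (log2 fold change of 2.20 with an SE of 0.36, adjusted p = 0.000281). Lag3 stood at 144 and 175 CPM in WT, against 118 and 110.4 in SDHA-KO (log2 fold change of −0.48 with an SE of 0.10, adjusted p = 0.00132). Among cells that also had under 10% mitochondrial UMIs, the Lag3 difference was 0.18 in the other direction (adjusted p = 0.178). Btla, which was not called over all CD8 cells, was higher in SDHA-KO here, at 44.9 and 48.0 CPM against 36.1 and 29.0 CPM in WT (log2 fold change of 0.51 with an SE of 0.11, adjusted p = 0.00221). When every cell was thinned to 5000 UMIs the Btla call was lost (0.26, adjusted p = 0.25). Tox was no longer called, with 94.0 and 67.9 CPM in WT, against 54.9 and 83.3 in SDHA-KO (log2 fold change −0.24, interval −0.60 to 0.12, adjusted p = 0.256). Tigit (0.43, adjusted p = 0.121) and Entpd1 (−0.63, adjusted p = 0.266) were not called either.

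**Figure D2:**
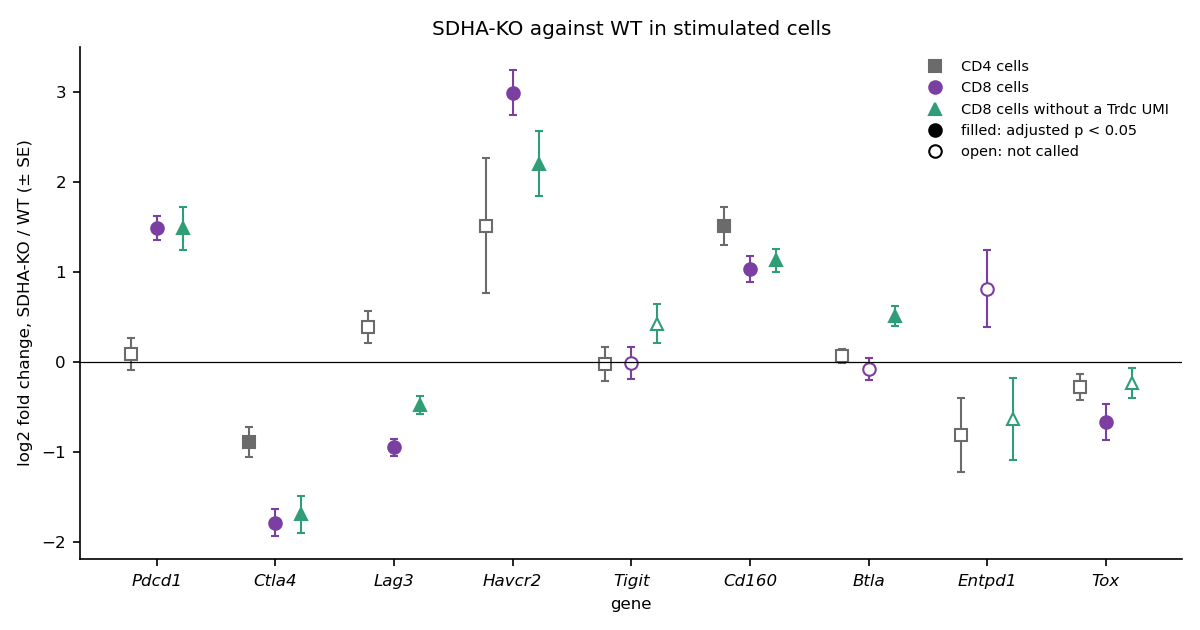
Log2 fold change of SDHA-KO against WT in stimulated cells (vertical axis, bars are ± 1 SE) for each of the 9 genes, in CD4 cells (gray squares), CD8 cells (purple circles), and CD8 cells without a Trdc UMI (green triangles). Filled symbols were called at an adjusted p below 0.05. Ctla4 lies below 0 in all 3 and Cd160 above 0 in all 3, while Pdcd1 and Havcr2 were called in the CD8 classes only and Lag3 lies above 0 in CD4 cells, where it was not called, and below 0 in CD8 cells.

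Within the stimulated SDHA-KO libraries, the CD8 cells with and without a Trdc UMI were compared with each other, with the library as a block. Here 6 of 9 members were called, where 16.5% of the 12539 genes tested were called. Havcr2 stood at 9.89 and 9.07 CPM in cells without a Trdc UMI and at 35.7 and 31.7 CPM in cells with one, 3.55-fold higher (log2 fold change of 1.83 with an SE of 0.17, adjusted p = 0.000501). Entpd1 stood at 2.26 and 1.05 CPM without and at 9.07 and 3.95 CPM with a Trdc UMI (log2 fold change of 1.96 with an SE of 0.38, adjusted p = 0.0113). Both were higher in the Trdc-positive cells of each library. Entpd1 was not called with DESeq2, with limma on mean log values, or without the first SDHA-KO library.

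Btla, Lag3, Tox, and Tigit were lower in the Trdc-positive cells. Btla stood at 52.7 and 55.6 CPM without and at 18.4 and 23.1 CPM with a Trdc UMI (log2 fold change of −1.39 with an SE of 0.12, adjusted p = 0.000286). Lag3 stood at 139 and 128 CPM without and at 67.3 and 63.9 CPM with one (log2 fold change of −1.02 with an SE of 0.09, adjusted p = 0.000301). Tox stood at 64.4 and 96.6 CPM without and at 28.4 and 54.5 CPM with one (log2 fold change of −0.99 with an SE of 0.11, adjusted p = 0.000852). Tigit followed at 10.2 and 12.7 CPM against 5.26 and 6.39 CPM (log2 fold change −0.97, adjusted p = 0.0267), a call that was lost without either SDHA-KO library. Pdcd1 showed a log2 difference of 0.01 (adjusted p = 0.988), Ctla4 of −0.20 (adjusted p = 0.545), and Cd160 of −0.29 (adjusted p = 0.0827). Sdha was higher in the Trdc-positive cells (log2 fold change 1.02, adjusted p = 0.000395). In stimulated WT, few cells carried Trdc (31 and 41), and Havcr2 stood at 19.9 and 24.7 CPM in them, against 1.37 and 2.69 CPM in the WT cells without it.

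**Figure D3:**
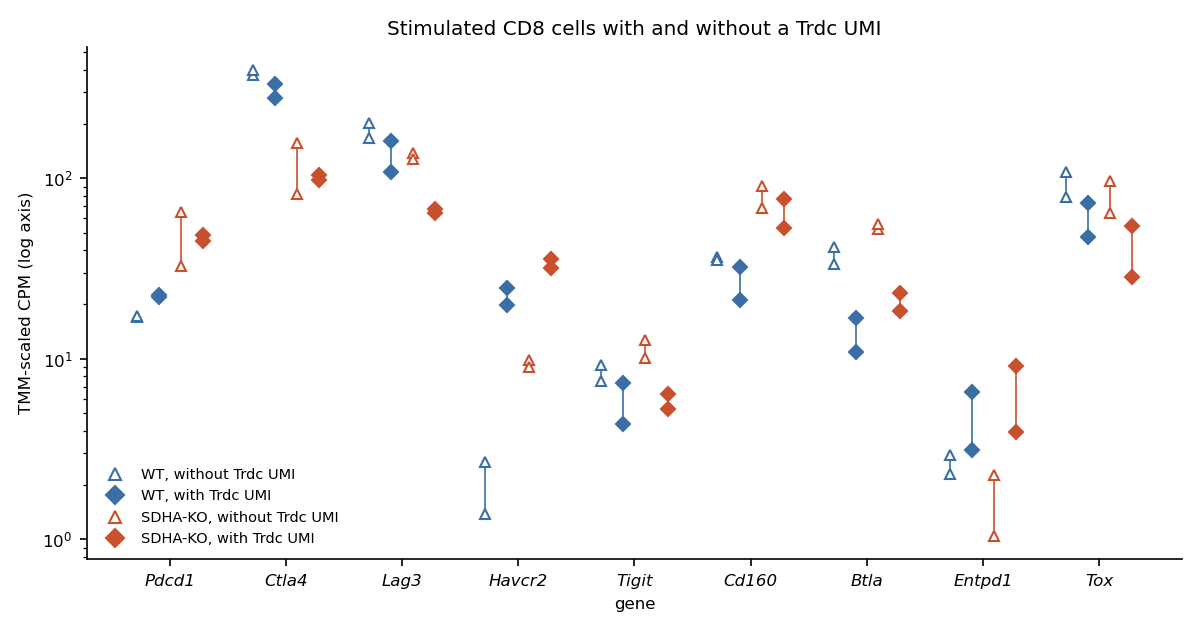
TMM-scaled CPM (vertical axis, log scale) of the 9 genes in stimulated CD8 cells without a Trdc UMI (open triangles) and with one (filled diamonds), in WT (blue) and SDHA-KO (red). Each pair of joined symbols is the 2 libraries of a group. Havcr2 is higher with Trdc in both genotypes, Btla is lower with Trdc in both, and the Pdcd1 symbols lie higher and the Ctla4 symbols lower in SDHA-KO than in WT, with and without Trdc.

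In stimulated CD4 cells fewer members differed between the genotypes. Ctla4 was lower and Cd160 was higher in SDHA-KO, 2 of 9 members, where 43.2% of the 14264 genes tested were called, 22.7% higher and 20.5% lower. The median log2 fold change of the 9 genes was 0.07, against −0.00094 for all genes tested. Ctla4 stood at 227 and 246 CPM in WT, against 149.6 and 107 in SDHA-KO, 1.85-fold lower (log2 fold change of −0.89 with an SE of 0.17, adjusted p = 0.0015). Cd160 stood at 6.79 and 5.29 CPM in WT, against 20.9 and 13.7 in SDHA-KO, 2.85-fold higher (log2 fold change of 1.51 with an SE of 0.21, adjusted p = 0.00022). Both groups of libraries were separate in both genes. Among cells under 10% mitochondrial UMIs the values were −0.76 for Ctla4 (adjusted p = 0.00462) and 1.46 for Cd160 (adjusted p = 0.000309). Trdc was also higher in the SDHA-KO CD4 sums (1.73, adjusted p = 5.01e-05). There the 7 γδ T cell markers summed to 23.6 and 18.4 CPM against 6.17 and 6.67 CPM in WT, with 7 detected in each, and the 5 NK cell markers to 5.11 and 1.20 CPM (4 and 3 detected) against 0.158 and 0.172 CPM (1 and 2 detected), with Klra8 at 0 in all 4. In strict CD4 cells, which showed Cd4 but neither Cd8 nor Trdc UMIs, the values were 1.21 for Cd160 (adjusted p = 0.00109) and −0.93 for Ctla4 (adjusted p = 0.00304).

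Pdcd1 did not differ detectably in these CD4 cells. It stood at 18.8 and 15.4 CPM in WT, against 15.3 and 20.8 in SDHA-KO, a log2 difference of 0.08 with an interval from −0.31 to 0.47 (adjusted p = 0.737). Lag3 stood at 90.9 and 95.8 CPM in WT, against 133 and 110.9 in SDHA-KO, with both SDHA-KO libraries above both WT libraries but no call (log2 fold change of 0.38 with an SE of 0.18, adjusted p = 0.104). It was called among cells under 10% mitochondrial UMIs (0.59, adjusted p = 0.0306) and in a fit of the 4 stimulated libraries alone. Havcr2 was at most 4.33 CPM in any stimulated CD4 sum and was not called (log2 fold change 1.51, adjusted p = 0.125). Btla stood at 137 and 129 CPM in WT, against 134 and 145 in SDHA-KO, with an interval of the log2 difference from −0.10 to 0.23. Tigit had an interval from −0.43 to 0.39. Tox was at 188 and 154 CPM in WT, against 116 and 166 in SDHA-KO (−0.28, adjusted p = 0.134), and Entpd1 was at or below 2.04 CPM in every stimulated CD4 sum (−0.81, adjusted p = 0.132).

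The genotypes differed in how stimulated cells were spread over memory-like subsets. The authors named clusters effector memory (Tem) or central memory (Tcm) from a set of marker genes. Tem cells were 37.1% and 38.6% of the stimulated WT CD4 cells and 79.2% and 82.6% of those of SDHA-KO, and 23.2% and 28.9% of the WT CD8 cells and 56.0% and 58.6% of those of SDHA-KO. Depth moved with them, from a median of 10849 and 10875 UMIs per CD4 Tcm cell to 60983 and 61520 per CD4 Tem cell in WT and from 6871.5 and 7418 to 28229 and 28380 in SDHA-KO. The members were therefore also compared within Tcm and within Tem cells, in fits of the 4 stimulated libraries that were added after the values had been seen. The clusters had been drawn from the same cells with all genes, these included.

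Within the CD4 subsets more members were called than over all CD4 cells in the fit of 8 libraries. The subset fits held only the 4 stimulated libraries. In such a fit over all CD4 cells Lag3 was called too. In Tcm cells 4 of the 8 members tested were called (25.1% of the 11767 genes tested), with Entpd1 below the filter. Lag3 stood at 199.9 and 221 CPM in WT, against 317 and 267 in SDHA-KO (log2 fold change 0.47, adjusted p = 0.0126), and Ctla4 (−0.82), Havcr2 (2.94), and Cd160 (1.92) were the other 3. The Havcr2 call rested on low levels, 0.95 and 0.29 CPM in WT against 7.43 and 2.28 in SDHA-KO. Its libraries overlapped in the Tcm2 and Tcm3 clusters, and those of SDHA-KO lay above in Tcm4. In Tem cells 4 of 9 were called (31.7% of the 13530 genes tested). Lag3 stood there at 70.1 and 72.0 CPM in WT, against 122 and 102 in SDHA-KO (log2 fold change of 0.66 with an SE of 0.10, adjusted p = 0.0036), so that it was higher in SDHA-KO in both subsets. Btla stood at 99.6 and 87.4 CPM in WT, against 121 and 127 in SDHA-KO Tem cells (0.41, adjusted p = 0.0123), and Ctla4 (−0.70) and Cd160 (1.40) were called in Tem cells too.

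Within the CD8 subsets Pdcd1, Havcr2, Cd160, and Ctla4 were called in both. Pdcd1 differed by 1.27 in Tcm and by 1.69 in Tem cells, Havcr2 by 3.15 and 3.14, Cd160 by 1.08 and 0.97, and Ctla4 by −1.53 and −1.65 on the log2 scale. Lag3 was lower in SDHA-KO Tcm cells, at 145 and 133 CPM against 296 and 385 CPM (log2 fold change −1.29, adjusted p = 0.0015), and was not called in Tem cells (−0.38, adjusted p = 0.0589). Tox was called in neither (−0.56 and −0.30). Over all CD8 cells Tox was not called in a fit of the 4 stimulated libraries either. Of all genes tested, 27.9% of 12051 were called in CD8 Tcm cells and 33.4% of 12375 in CD8 Tem cells.

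**Figure D4:**
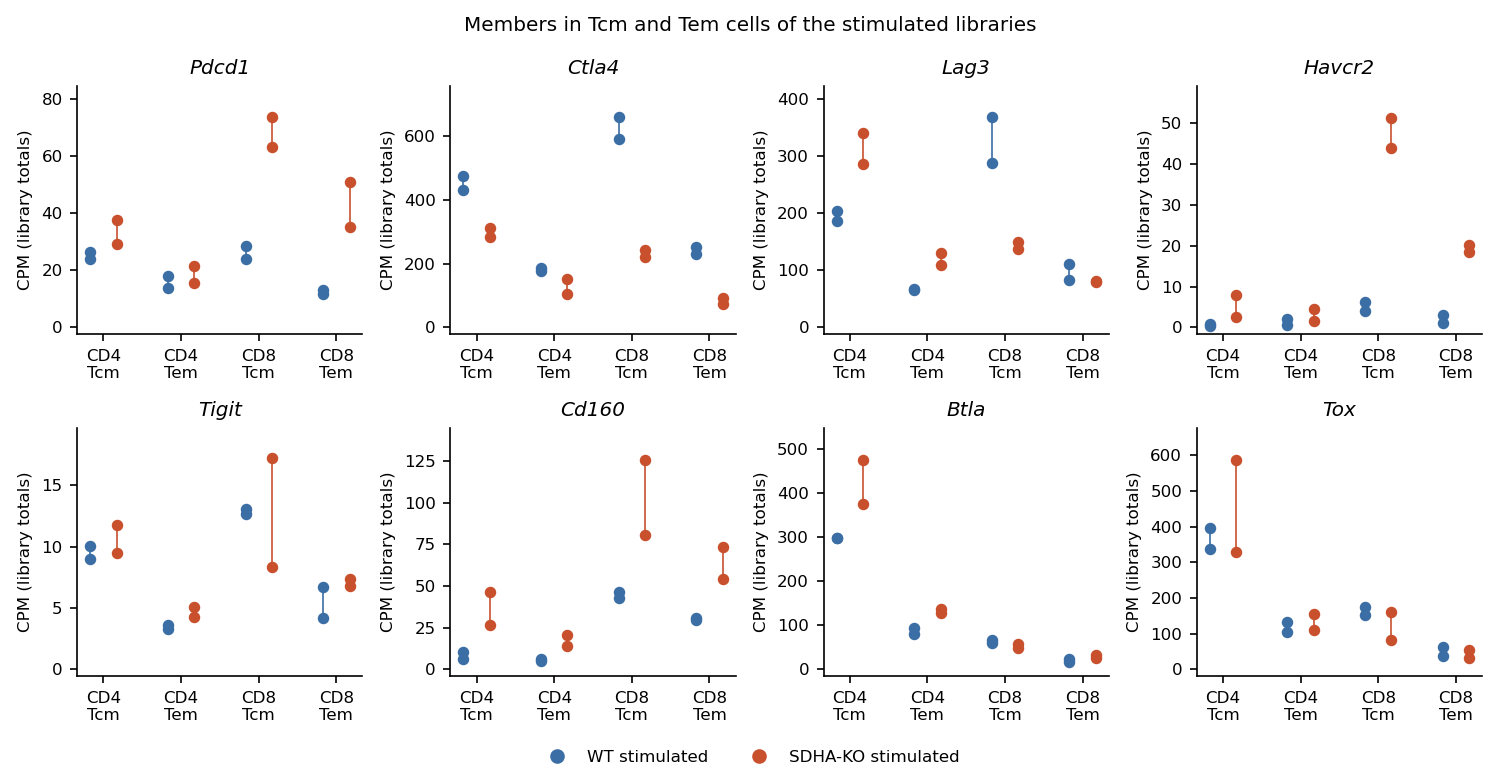
CPM by library totals (vertical axes, linear, each gene with its own scale) of 8 of the genes in the Tcm and Tem cells of the stimulated libraries, blue for WT and red for SDHA-KO, with the 2 libraries of a group joined. Lag3 is higher in SDHA-KO in both CD4 subsets and lower in CD8 Tcm cells, and Ctla4 is lower in SDHA-KO in all 4 subsets.

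Whether the effect of the genotype differed between CD8 and CD4 cells was tested directly in the 4 stimulated libraries. Called differences were found in 5 of 9 members, where 22.4% of the 14617 genes tested were called. Pdcd1 (1.39, SE 0.12, adjusted p = 0.000526) and Entpd1 (1.58, SE 0.33, adjusted p = 0.0117) had the higher log2 effect in CD8 cells. Lag3 (−1.34, SE 0.10, adjusted p = 0.000376), Ctla4 (−0.91, SE 0.07, adjusted p = 0.000477), and Tox (−0.41, SE 0.10, adjusted p = 0.0261) had the lower. Ctla4 was lower in SDHA-KO in both classes, by more in CD8 cells, while Lag3 was lower in CD8 cells and was not called in CD4 cells. Between cells of the strict classes, in which a cell had to show UMIs of its own coreceptor and none of the other coreceptor or of Trdc, the calls of Pdcd1, Ctla4, and Lag3 held, and those of Entpd1 and Tox were lost, with Tox at 0.11. The difference for Havcr2 was 1.52 and was not called (adjusted p = 0.183), nor was that for Cd160 (−0.50, adjusted p = 0.331), Btla (−0.15), or Tigit (0.00).

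Before stimulation no member was called between the genotypes in either class by edgeR. In CD4 cells, where 1.1% of the 14264 genes tested were called, 4 members had an unadjusted p below 0.05, as had 2282 of all genes tested, and DESeq2 and limma on mean log values each called 0. Other edgeR settings called some of them. Without a filter on low counts these were Lag3 (adjusted p = 3.46e-06), Ctla4 (0.00119), and Pdcd1 (0.0325), in strict classes Lag3 (0.0354) and Pdcd1 (0.0037), and in a fit of the unstimulated libraries alone Lag3 (0.0254) and Ctla4 (0.0234). Lag3 had the lowest unadjusted p, with a value of −2.37 that was −0.82 without 1 cell of WT, described below. Ctla4 stood at 102 and 102 CPM in WT, against 56.3 and 84.8 in SDHA-KO (log2 fold change −0.53), Pdcd1 differed by −0.74, and Entpd1 by −1.11. Tregs made up 9.86% and 7.89% of the WT and 6.54% and 6.62% of the SDHA-KO CD4 cells and held 44.5% to 51.0% of the Ctla4 UMIs, with 501 and 604 CPM in WT, against 354 and 526 in SDHA-KO Tregs. In CD8 cells, where 0.947% of the 13095 genes tested were called, 1 member had an unadjusted p below 0.05, against 1852 of all genes tested, and DESeq2 and limma again called 0. Cd160 stood at 17.4 and 24.1 CPM in WT, against 36.0 and 30.8 in SDHA-KO (log2 fold change 0.66, adjusted p = 0.218). In a fit of the unstimulated libraries alone, Cd160 (adjusted p = 0.0481) and Tox (adjusted p = 0.031) were called. Without Trdc-positive cells, where 1.74% of 11938 genes were called, 1 member (Tox) had an unadjusted p below 0.05, against 1737 of all genes tested, and 0 were called. Tox was called there in thinned cells and in a fit of the unstimulated libraries alone.

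Tox showed the most regular difference over the naive clusters of unstimulated cells, but it was not called over either class in the fit of 8 libraries. In CD4 cells its log2 fold change was 0.15 (adjusted p = 0.659). In CD8 cells it stood at 221 and 215 CPM in WT, against 274 and 272 in SDHA-KO (log2 fold change 0.33, adjusted p = 0.536), and among those without a Trdc UMI the difference was 0.39 (adjusted p = 0.293). Over the naive clusters, both SDHA-KO libraries lay above both WT libraries in 4 of 4 CD4 and in 4 of 4 CD8 clusters. Of all genes tested, 25.7%, 24.8%, 21.1%, and 26.4% lay above in this way in the CD4 clusters Naive1 to Naive4, and 27.1%, 20.3%, 17.3%, and 16.6% in the CD8 clusters Naive1 to Naive4. In the CD4 Naive1 cluster Tox averaged 379 ± 31.4 CPM in WT and 568 ± 36.2 CPM in SDHA-KO (mean ± SD, n = 2 libraries), and in the CD8 Naive1 cluster 247 ± 0.624 and 336 ± 6.43 CPM. The clusters are parts of the same libraries and do not replicate one another. In the unstimulated CD4 Tem1 cluster Tox lay the other way, at 737 ± 89.7 CPM in WT and 399 ± 84.7 CPM in SDHA-KO, where 13.8% of the genes tested lay below. In the unstimulated CD4 Treg and CD8 Tcm1 clusters the libraries of the genotypes overlapped.

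The difference of the genotype effect between the 2 states was called for 2 members in CD4 cells (21.4% of the genes tested) and for 2 in CD8 cells (23.8%). In CD8 cells Ctla4 (−1.97, SE 0.37, adjusted p = 0.00384) and Tox (−1.0, SE 0.29, adjusted p = 0.0284) had the lower effect in stimulated cells. Before stimulation their values were 0.18 and 0.33, neither called, and after it −1.78 and −0.67. Without Trdc-positive cells the differences were −2.10 for Ctla4 (adjusted p = 0.0102) and −0.63 for Tox (adjusted p = 0.0696), the latter not called. In CD4 cells Cd160 (1.63, SE 0.42, adjusted p = 0.0185) and Lag3 (2.75, SE 0.63, adjusted p = 0.0111) had the higher effect in stimulated cells, from −0.12 before to 1.51 after stimulation for Cd160 and from −2.37 to 0.38 for Lag3, which was called in neither state. The Lag3 value rested on 1 cell. Of the 53 Lag3 UMIs in the CD4 cells of the second unstimulated WT library, 45 came from 1 Tem1 cell, which also held 20 of 20 Havcr2 and 67 of 68 Il10 UMIs and no Foxp3 UMI. Without it the Lag3 difference was 1.20 (adjusted p = 0.193). The Cd160 call was lost without either unstimulated WT library or without the second unstimulated SDHA-KO library. The Ctla4 call was lost without the second unstimulated SDHA-KO library, and the Tox call was lost in each case with 1 of the 4 unstimulated libraries or the first stimulated WT library left out.

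Over the single clusters of stimulated cells the same members stood out. Levels in single clusters were not TMM-scaled, so composition shifts between the genotypes remain in them and in the shares of all genes. In CD4 cells, 8 clusters had at least 20 cells in every stimulated library. Ctla4 was lower in both SDHA-KO libraries than in both WT libraries in 8 of 8, and Cd160 higher in 8 of 8. Of all genes tested, 18.1%, 18.6%, and 21.7% lay below in Tcm2, Tcm3, and Tcm4 and 16.7%, 18.3%, 18.3%, 21.4%, and 23.0% in Tem1, Tem2, Tem3, Tem5, and Tem7, while 33.7%, 30.9%, and 34.7% lay above in these Tcm and 48.9%, 44.0%, 42.2%, 41.3%, and 24.4% in these Tem clusters. Lag3 was higher in 7 and lower in 1, Tem7, where it stood at 188 ± 77.9 CPM in WT and 82.7 ± 16.1 CPM in SDHA-KO. In the Tcm2 cluster Lag3 went from 185 ± 11.8 to 451 ± 43.3 CPM. Btla was likewise higher in 7 and lower in Tem7, and in Tem7 Pdcd1 went from 109.6 ± 17.2 to 45.7 ± 3.1 CPM and Tox from 330.2 ± 0.225 to 101 ± 23.1 CPM. In CD8 cells, 4 clusters could be compared, and Pdcd1 and Havcr2 were higher and Ctla4 and Lag3 lower in 4 of 4. Of all genes tested, 28.2%, 28.6%, 26.0%, and 31.7% lay above and 30.1%, 27.0%, 22.4%, and 34.4% below in Tcm2, Tcm3, Tcm4, and Tem2. In the CD8 Tcm2 cluster Ctla4 went from 794 ± 12.3 to 212 ± 31.0 CPM. Cd160 was higher in 3 of 4, Tox lower in 3 of 4, and Tigit overlapped in 4 of 4.

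The share of cells in which a member was found depends on depth, which was higher in the stimulated SDHA-KO than in the stimulated WT cells, with 31524 and 29907.5 against 13103 and 13217 UMIs in the median CD8 cell without Trdc. Each cell was therefore thinned to 5000 UMIs, and shallower cells were left out. No test was made of shares, since the smallest p of an exact two-sided permutation of 2 libraries against 2 is 0.33. In stimulated CD8 cells Pdcd1 was found in 9.04% and 9.62% of WT and in 19.3% and 19.7% of SDHA-KO cells, and Havcr2 in 1.66% and 1.56% of WT and in 12.6% and 10.00% of SDHA-KO cells. Cd160 was found in 15.7% and 15.3% of WT and in 26.6% and 31.8% of SDHA-KO cells. Ctla4 was found in 71.8% and 74.9% of WT and in 36.5% and 37.7% of SDHA-KO cells, and Lag3 in 57.9% and 63.8% and in 41.4% and 39.7%. Foxp3, which CD8 cells should lack, was found in at most 0.26% of the stimulated CD8 cells. For these 5 members the shares of positive cells moved in the direction of the summed levels.

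Among stimulated CD8 cells without a Trdc UMI, Havcr2 was found in 1.36% and 1.26% of WT and in 4.35% and 2.91% of SDHA-KO cells, and among those with one in 9.68% and 7.32% of WT and in 18.3% and 15.6% of SDHA-KO cells. Unthinned, Pdcd1 was found in 24.1% and 23.6% of WT and 52.3% and 60.4% of SDHA-KO CD8 cells, and Lag3 in 87.1% and 87.9% and in 82.6% and 82.8%, a smaller gap than in thinned cells. In stimulated CD4 cells Pdcd1 was found in 9.75% and 8.98% of WT and 7.90% and 8.43% of SDHA-KO cells, Ctla4 in 64.9% and 64.5% and in 41.7% and 34.7%, and Cd160 in 4.04% and 2.22% and in 10.1% and 7.01%. Lag3 was found in 43.0% and 42.8% of WT and in 50.3% and 42.2% of SDHA-KO CD4 cells, with the libraries overlapping.

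**Figure D5:**
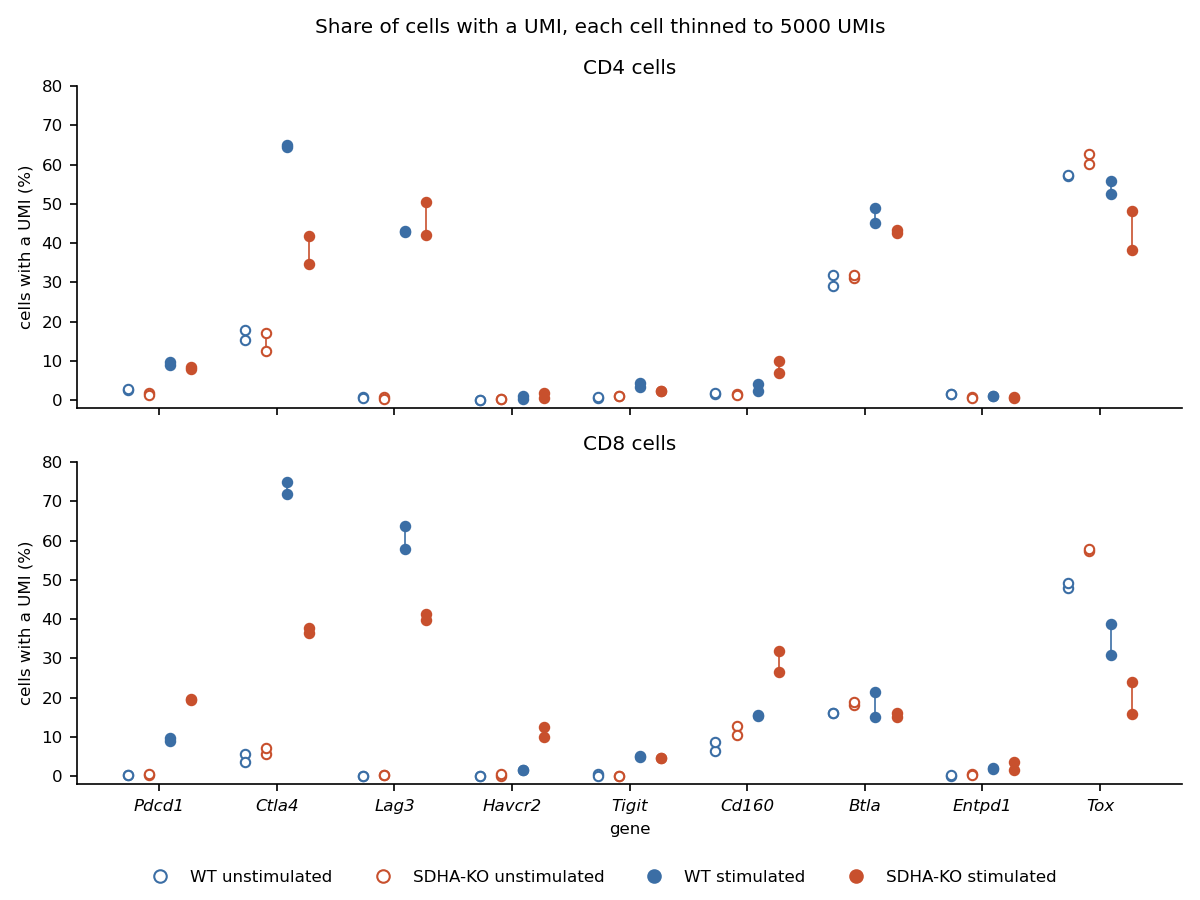
Share of cells with at least 1 UMI of each gene (vertical axes, percent) after thinning to 5000 UMIs per cell, in CD4 cells (top) and CD8 cells (bottom). Symbols are single libraries, open for unstimulated and filled for stimulated, blue for WT and red for SDHA-KO, with the 2 libraries of a group joined. Ctla4 and Lag3 have the highest shares in stimulated CD8 cells and are lower there in SDHA-KO, while Pdcd1, Havcr2, and Cd160 are higher in SDHA-KO.

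Cells with 3 or more of the 9 genes were less frequent in the SDHA-KO libraries at equal depth. In thinned stimulated CD8 cells, 3 or more members were found in 38.6% and 38.5% of WT and in 26.6% and 26.9% of SDHA-KO cells, and no member in 5.71% and 6.85% of WT and in 19.1% and 15.6% of SDHA-KO cells. Without Trdc-positive cells the shares with 3 or more were 39.0% and 39.2% in WT and 33.8% and 30.2% in SDHA-KO, while those with 5 or more were 3.09% and 3.54% in WT and 3.86% and 4.07% in SDHA-KO. Over all CD8 cells those with 5 or more were 3.21% and 3.37% in WT and 3.35% and 2.31% in SDHA-KO, with the libraries overlapping. In stimulated CD4 cells the shares with 3 or more were 43.9% and 40.2% in WT and 33.3% and 28.1% in SDHA-KO. The order for 3 or more turned in unthinned CD8 cells, with 79.7% and 77.0% in WT and 81.2% and 88.6% in SDHA-KO. Before stimulation the thinned shares with 3 or more were 1.56% to 2.57% in CD8 cells and 5.09% to 7.67% in CD4 cells. Within libraries, Cd160 was found more often in Pdcd1-positive than in Pdcd1-negative stimulated CD8 cells, in 27.6% against 14.5% and 22.5% against 14.5% in WT and in 37.8% against 24.0% and 42.9% against 29.1% in SDHA-KO. This was not particular to Cd160, since Lag3, Btla, and Tigit were also found more often in the Pdcd1-positive cells of each of these libraries. The direction for Ctla4, Havcr2, Entpd1, and Tox varied between libraries.

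Genes that act with the receptors were taken from 5 lists written by hand. Their counts stand beside the shares of all genes tested that were higher and lower in stimulated SDHA-KO cells, 22.7% and 20.5% in CD4 and 26.8% and 23.5% in CD8 cells. Of 12 ligands, 11 were in the file. In stimulated CD8 cells 3 of 10 tested were higher and 2 lower in SDHA-KO, and in stimulated CD4 cells 4 of 11 were higher and 2 lower. Cd80, a ligand of CTLA-4 and CD28, was higher in CD4 (log2 fold change 2.94) and CD8 cells (1.53), and Pvr, the main ligand of TIGIT, was lower in both (−0.85 and −1.65). Lgals3, which encodes galectin-3, was higher in CD8 cells (2.14, adjusted p = 0.000111). The 5 B cell markers summed to 343 and 64.1 CPM in the stimulated SDHA-KO CD8 sums (5 and 5 detected) and to 53.7 and 50.0 CPM in those of WT (4 and 3 detected, with Ms4a1 at 0). The 7 macrophage and dendritic cell markers summed to 145 and 141 CPM against 91.6 and 89.4 CPM, with 4 or 5 detected and Lyz2 and C1qa at 0 in all 4 sums. Their part in these ligand values was not tested. The median log2 fold change was 0.08 in CD4 and −0.12 in CD8 cells for the ligands, 0.18 and −0.02 for the other receptors, 0.31 and 0.48 for the adenosine axis, −0.07 and −0.08 for inhibitory signaling, and 0.22 and 0.20 for the TOX family and transcription factors, the lists that follow.

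Among 14 other inhibitory or paired receptors, 6 of 14 were higher and 1 lower in stimulated SDHA-KO CD4 cells, and 3 of 13 higher and 4 lower in CD8 cells. Klrc1, which encodes the inhibitory receptor NKG2A, was higher in CD8 cells, at 3.65 ± 0.346 CPM in WT and 19.6 ± 1.58 CPM in SDHA-KO (2.42, adjusted p = 8.98e-06), and in CD4 cells (3.38, adjusted p = 0.00233). It was also the member of this list called in unstimulated CD8 cells (1.81, adjusted p = 0.0359), and it was higher in Trdc-positive than in Trdc-negative SDHA-KO cells (1.10, adjusted p = 0.00818). The 5 NK cell markers summed to 12.4 and 8.85 CPM in the stimulated SDHA-KO CD8 sums (4 and 2 detected) and to 2.96 and 2.51 CPM in those of WT (3 and 3 detected), with Klra8 at 0 in all 4, and their part in the Klrc1 value was not tested. Icos, a costimulatory relative of CD28, was lower in CD8 cells (−0.85, adjusted p = 5.01e-05). Of the 5 genes of the adenosine axis that CD39 feeds, 3 were higher and 1 lower in each class. Ada, which removes adenosine, and Adora2a, the adenosine receptor of T cells, were higher in CD8 cells (1.03 and 0.70), and Nt5e, which encodes CD73, the enzyme after CD39, was lower (−0.89).

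Downstream of the receptors, 13 genes of inhibitory signaling gave 4 higher and 3 lower in stimulated CD4 cells and 3 higher and 6 lower in CD8 cells. Cblb, a ubiquitin ligase that restrains activation, was higher in CD4 cells (0.59, adjusted p = 0.00122), and Ptpn6, which encodes the phosphatase SHP-1, in CD8 cells (0.42, adjusted p = 0.00175). Adam10, a protease that sheds LAG-3 from the cell surface, was lower in CD4 (−0.35) and CD8 cells (−0.58). Of 19 genes of the TOX family and transcription factors linked to exhaustion, 7 of 18 tested were higher and 4 lower in CD4 cells, and 6 of 17 higher and 1 lower in CD8 cells. Without Trdc-positive cells 10 of 17 were higher and 1 lower, where 24.9% of all genes tested were higher and 24.4% lower. Batf, an AP-1 factor, was higher in CD4 (1.10, adjusted p = 0.000459) and CD8 cells (1.43, adjusted p = 2.91e-05), and Ikzf2, which encodes Helios, in stimulated CD4 cells (1.83, adjusted p = 3.16e-06) and in unstimulated CD8 cells (1.37, adjusted p = 0.000794). In Trdc-positive against Trdc-negative SDHA-KO cells, where 16.5% of all genes were called, 2 were higher and 8 lower, among the latter Nr4a1 (−1.48) and Nr4a3 (−1.42), immediate early targets of T cell receptor signals.

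The genes whose levels most resembled each member but Ctla4 over the 16 sums (8 libraries by 2 classes) were named by Pearson's r of log2(CPM + 1), as a description without a test, since the sums share libraries and stimulation. Pdcd1 was most like Ifi30 (0.954) and Bcl2a1d (0.953), Lag3 most like Litaf (0.984) and Alcam (0.983), and Tigit most like Il2ra (0.962), the α chain of the IL-2 receptor, and Rnf121 (0.958). Cd160 was most like Nkg7 (0.958), a cytotoxic granule gene, and Dennd4a (0.947). Havcr2 was most like Dnajb11 (0.927) and Zfp91 (0.924), Btla most like Lrig1 (0.930) and Trim24 (0.918), and Tox most like Ralgps2 (0.983) and Wasf2 (0.975). The values for Entpd1 were the lowest, with Pdha1 (0.766) and Tob2 (0.765).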

How the data were processed

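Counts from 8 single-cell libraries were used, 2 for each of 4 groups, with groups and replicate numbers taken from the sample titles. The authors used bcl2fastq, Cell Ranger (version not given in the sources used here) with mm10, and Seurat 4.2.0 on 10x 3′ HT v3.1 libraries. They removed cells above 6000 (unstimulated) or 8000 (stimulated) detected genes and clusters without CD3 transcripts, and deposited raw UMI counts per gene and cell with the class and subset of each cell. The cell table of the authors also gives UMI and gene counts, a mitochondrial percentage, and a log10 ratio of Cd4 to Cd8a. It names libraries by abbreviations, which were read as genotype, not treated or treated, and number. No per-sample value column was without a sample (0 columns), and all cells were kept. No doublet caller was run, so doublets remain.

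UMIs were summed per library and class, filtered with filterByExpr (minimum count 10, total 15), scaled with TMM (trim 0.3), and tested with edgeR 4.0.16 (glmQLFit, glmQLFTest, 4 groups over 8 libraries) in R 4.3.3. CD8 against CD4 cells, and Trdc-positive against Trdc-negative CD8 cells, were each compared in a fit restricted to stimulated libraries (4), blocked by library. The common dispersion gave a spread between replicates of 8.73% in CD4 and 8.24% in CD8 cells, and 1 UMI is worth 0.275 CPM in the smallest CD8 sum. Alternatives used DESeq2 1.42.0, limma 3.58.1, other normalizations, filters, and cells, and each library left out in turn. Python 3.11.15 with numpy 2.4.6, scipy 1.17.1, pandas 2.3.3, and matplotlib 3.10.9 was used for values per cell and plots. The 9 genes and all lists were chosen with earlier results of these data known. Named were the 9 genes, Sdha and Trdc, up to 2 called genes of each list in each direction (largest change), and the 2 genes of at least 20 CPM most like each member. A B cell marker and the genes most like Ctla4 are not reported here. Marker genes at issue and Il10 were named after their values were seen.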

Additional observations from a re-analysis of the deposited data

Results flagged for a closer look

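The effect of SDHA-KO differed between stimulated and unstimulated cells, by a test of the difference itself, for Lag3 (2.75 on the log2 scale) and Cd160 (1.63) in CD4 cells and for Ctla4 (−1.97) and Tox (−1.0) in CD8 cells. The Lag3 value rested on 1 cell of an unstimulated WT library and was 1.20 without it (adjusted p = 0.193 by edgeR). The Cd160, Ctla4, and Tox calls were each lost with certain single libraries left out. Without Trdc-positive cells the Tox difference was −0.63 and was not called (adjusted p = 0.0696 by edgeR).

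Between stimulated CD8 and CD4 cells the effect differed, by the same kind of test, for Pdcd1 (1.39), Ctla4 (−0.91), Lag3 (−1.34), Entpd1 (1.58), and Tox (−0.41). Trdc-positive cells were 59.1% and 56.1% of the stimulated SDHA-KO CD8 cells. With strict classes, which hold no Trdc-positive cell, Pdcd1, Ctla4, and Lag3 were still called and Entpd1 and Tox were not. Groups of 2 libraries are too small to single out a library that lies far from the others of its group.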

How the results depend on the processing

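Of the values of single genes, 1304 of 1412 under alternatives and 890 of 936 with a library left out kept direction and call. Members called in stimulated CD4 cells (2) became 4 without a filter, among cells under 10% mitochondrial UMIs, in strict classes, and within Tcm and within Tem cells, and 5 with limma. In unstimulated CD4 cells (0) they became 3 without a filter, 2 in strict classes, and 2 in a fit of those libraries alone, which also gave 2 in unstimulated CD8 cells and 1 (Tox, also in thinned cells) without Trdc. The difference between states gave 4 (no filter), 1 (DESeq2), 4 (limma), and 1 (without 1 cell) in CD4 cells, and 1 (DESeq2), 7 (limma), and 1 (under 10%) in CD8 cells. With a library left out, the ranges were 2 to 4 (stimulated CD4), 5 to 7 (stimulated CD8), 6 to 7 (without Trdc), 0 to 0 (unstimulated), 0 to 3 and 0 to 2 (between states, CD4 and CD8), 3 to 6 (CD8 against CD4), 4 to 7 (Trdc), 6 to 7 and 6 to 8 (stimulation, WT and SDHA-KO CD4), and 6 to 9 and 8 to 9 (CD8). The SDHA-KO minus WT share of cells with 3 or more members moved from −11.3 to −5.02 unthinned and −5.32 at 2000 UMIs in CD4 cells, and from −11.8 to 6.57 and −3.19 in CD8 cells.

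Directions that turned with a call were Btla in stimulated CD4 cells (limma, −0.10), in stimulated CD8 cells (0.49 under 10%, 0.43 strict), with stimulation of WT CD8 cells (limma, 0.088), between states in CD4 cells (limma, −0.14), and CD8 against CD4 (strict, 0.42), Tigit (0.57) and Entpd1 (−1.53) in strict stimulated CD8 cells, Havcr2 with stimulation of WT CD4 cells (fitted as 7.34 over 0 UMIs without 1 cell, which is no measured fold) and between states in CD8 cells (limma, 0.24), Entpd1 with stimulation of SDHA-KO CD4 cells outside Tregs (0.55), Lag3 without Trdc under 10% (0.18), and CD8 against CD4 Cd160 (limma, 0.25) and Tox (strict, 0.11). Limma here weighs each cell alike, and its values are on the log2 scale. The causes were not tested.

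Genes called differed most from 6160 and 6594 (stimulated CD4 and CD8) within Tcm cells (2956 and 3358) and CD8 Tem cells (4128). For unstimulated CD4 cells 157 became 643 without a filter, 281 with DESeq2, and 445 with those libraries alone, and for CD8 cells 124 became 225, 264, and 338, 353 with limma, and 219 in strict classes. Without Trdc 208 became 432 with those libraries alone, and 5884 became 3806 under 10%. Between states 3053 became 6304 (limma) and 1951 (under 10%) in CD4 cells, and 3111 became 5052 and 1397 in CD8 cells. CD8 against CD4, 3270 became 1505 (DESeq2), 1585 (thinned), and 1430 (strict), and the 2066 of the Trdc comparison became 889, 1228 (limma), and 1269 (thinned). Without composition normalization, higher and lower calls with stimulation went from 5160 and 4295 to 6257 and 3308 (WT CD4), from 5217 and 4738 to 6242 and 3694 (SDHA-KO CD4), from 4644 and 3962 to 6918 and 2230 (WT CD8), and from 4875 and 4050 to 5959 and 3031 (SDHA-KO CD8). Those between states in CD8 cells went from 1769 and 1342 to 1026 and 2109, those in unstimulated CD8 cells from 37 and 87 to 103 and 38, those without Trdc from 50 and 158 to 138 and 101, and those of CD8 against CD4 from 1744 and 1526 to 1304 and 1998. DESeq2 size factors moved unstimulated CD4 cells from 75 and 82 to 62 and 103.

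Same-numbered libraries showed no clear common deviation (correlations −0.0777 to 0.0476). Whether they share mice cannot be read from this, since replicates of unstimulated WT differed by little beyond counting error. With a replicate block the members called were 2, 0, 8, 8, and 2 in CD4 cells (SDHA-KO against WT stimulated and unstimulated, stimulation of WT and of SDHA-KO, between states), 6, 0, 9, 8, and 2 in CD8 cells, and 6 and 0 without Trdc. At most 137 Havcr2 UMIs in stimulated WT CD8 cells, and single UMIs before stimulation, limit what can be said of the rarest members.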

Other observations

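One cell of the second unstimulated WT library, annotated as a CD4 Tem1 cell, held 26969 UMIs of 4775 genes, and among the CD4 cells of that library it carried 45 of 53 Lag3, 20 of 20 Havcr2, 21 of 49 Entpd1, 11 of 68 Pdcd1, 56 of 683 Ctla4, 4 of 17 Tigit, and 60 of 2296 Tox UMIs. It also held 67 of 68 UMIs of Il10, the gene of an anti-inflammatory cytokine, together with 14 Cd4 UMIs and 0 of Foxp3, Cd8a, and Trdc. It was singled out after its values had been seen, and 1 cell has no replicate.

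In the strict CD8 class, limited to cells that show Cd8a or Cd8b1 but neither Cd4 nor Trdc, the difference between stimulated SDHA-KO and WT was 2.34 for Havcr2, 1.62 for Pdcd1, 1.20 for Cd160, −1.70 for Ctla4, and −0.38 for Lag3 on the log2 scale, each called by edgeR (adjusted p from 8.84e-06 to 0.00774). Tigit was higher there as well (0.57, adjusted p = 0.0488), and so was Btla (0.43, adjusted p = 0.00525).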
